A study of Mus musculus with 8 samples.

Results

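Chemokines are small secreted proteins that guide leukocytes, and their receptors are G protein-coupled receptors on the cells that respond. The 38 genes described here are 29 ligands and 9 receptors of the CC, CXC, CX3C and XC families, taken from the 55487 genes of the deposited table by gene symbol alone. All 38 symbols had 1 row each, and each row's Ensembl ID carried the same name in GENCODE M21. They were measured by bulk poly(A) RNA-seq of the ileum, the last part of the small intestine, in 4 Gsdme-/- mice (here KO4, KO5, KO7 and KO8) and 4 Gsdme+/+ mice (WT3, WT5, WT7 and WT8). Every mouse in both genotypes had received irinotecan, a topoisomerase I inhibitor that injures the gut lining, and mice without the drug were not analysed here. The values therefore compare genotypes under the drug and not the response to it. Gsdme encodes gasdermin E, a protein that forms membrane pores once caspases cut it. No strain, sex, age, dose, time of collection or allele design is given in the sources used here.

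In the gut, chemokines act in several circuits. Epithelial cells make CCL25 to hold CCR9-bearing lymphocytes in the small intestine. Injured or stimulated epithelium, stroma and myeloid cells make ELR-type CXC ligands for neutrophils and CCL2-type ligands for monocytes, and interferon-gamma induces CXCL9 and CXCL10 for CXCR3-bearing T cells. Organised lymphoid tissue such as Peyer's patches is laid out by CXCL13, CCL19, CCL20 and CCL21 acting on B cells, T cells and dendritic cells. In bulk tissue, a change in the number of cells of a type and a change in RNA per cell cannot be told apart.

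The libraries held 15617407 to 23437343 reads in genes, and values below are normalized counts, meaning reads divided by 1 size factor per library. Gsdme itself had 349 ± 242 in Gsdme-/- and 2851 ± 536 in WT (SD, n = 4 each), 12.3% of the WT mean, without overlap. By library it had 113 (KO4), 187 (KO5), 634 (KO7) and 464 (KO8), so KO4 and KO5 held the least. The two-sided exact permutation p for Gsdme was 0.0286, the smallest this design allows. Limma did not call Gsdme across all genes (adjusted p = 0.786). The ileal bile acid genes Fabp6 and Slc10a2 were expressed in every library. Fabp6 ran from 14739 to 57087 in Gsdme-/- and from 17519 to 72985 in WT. Slc10a2 had 7983 (KO4), 8955 (KO5), 24892 (KO7) and 17117 (KO8), against 18982 to 25319 in WT. Cubn, listed with them as a check of the ileum, was far lower in KO4 and KO5. It had 167 (KO4), 1002.5 (KO5), 10480 (KO7) and 7408 (KO8), against 3633 to 10658 in WT. Cell type markers set KO4 and KO5 off from the remaining libraries. Summed over 10 B cell and follicle markers, counts were 9907 (KO4) and 5635 (KO5), but 340 (KO7) and 266 (KO8), against 224 to 349 in WT. The 11 mature enterocyte markers summed to 140224 (KO4) and 224576 (KO5), but 602660 (KO7) and 448645 (KO8), against 340705 to 604288 in WT. The sum of the 8 general epithelial markers differed little, at 268828 to 303122 in Gsdme-/- and 264795 to 317532 in WT. Single markers of this list departed in both directions in KO4 and KO5. Vil1 had 32151 (KO4) and 32051 (KO5), against 36518 to 53237 in WT. Krt18 had 13978 (KO4) and 14934 (KO5), against 8435 to 10170 in WT. All 10 B cell markers had positive and all 11 enterocyte markers negative log2 fold changes, and limma called 0 of either list. The B cell markers Cr2, Fcer2a, Pax5, Ms4a1 and Blk reached the minimum mean of 10 for testing only through Gsdme-/- libraries. Without KO4 and KO5, 3 of 5 tested B cell markers and 10 of 11 enterocyte markers were positive, with medians of 0.144 and 0.0715. The part that cell makeup had in a difference was not tested.

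Across the chemokine system, means leaned towards Gsdme-/- without any gene passing the test. Of the 38 genes, 35 reached the minimum mean of 10 normalized counts over all libraries and were tested. Log2 fold changes (Gsdme-/- over WT) were positive in 32 and negative in 3, with a median of 0.63. Among all 16352 genes tested, 50.6% were positive and the median was 0.00260. Limma called 0 of the 35 at an adjusted p under 0.05 (smallest limma adjusted p = 0.849), where it called 0.00612% of all genes, 1 gene, which was higher and is no chemokine. At an unadjusted p under 0.05, 5 of the 35 were higher and 0 lower, against 2.61% and 1.77% of all genes (427 and 290, which quantile normalization turned to 346 and 402). The edgeR and DESeq2 tests on reads recovered from the table also called 0 of the 35, where edgeR called 0.00612% and DESeq2 0.055% of all genes (0.0489% higher and 0.00612% lower). Their smallest adjusted p among the 35 was 0.812 by edgeR, shared by Ccl5, Ccr9, Ccr7 and others, and 0.0756 by DESeq2, for Ccr7. DESeq2 gave no adjusted p to at least Cxcl1 (DESeq2 unadjusted p = 0.0439), which it therefore could not call. The DESeq2 shares are still over all 16352 genes. At an unadjusted p under 0.05, edgeR had 11 of the 35 higher and 0 lower, beside 4.43% and 1.58% of all genes. By the same threshold DESeq2 had 13 higher and 0 lower, beside 5.12% and 1.82%. The edgeR count includes Cxcl2, Cxcr2 and Ccr7, and the DESeq2 count at least Cxcl1. These genes reached the minimum mean only through Gsdme-/- libraries, so the filter partly fixed their direction.

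The lean rested largely on KO4. KO4 was the highest of the 8 libraries for 27 of the 35 genes, where it was the highest for 25.6% of all genes tested, and it was the lowest for 1, Ccl25, beside 24.4% of all genes. Log2 fold changes by edgeR, which models counts rather than log values, exceeded those of limma most for 9 genes in which KO4 was the highest library. They were 3.97 for Ccr7, 2.94 for Cxcl5, 2.81 for Cxcl2, 2.34 for Cxcr2, 2.31 for Cxcr4, 2.26 for Cxcl13, 2.23 for Cxcl10, 2.12 for Cxcl9 and 1.72 for Cxcl1, and DESeq2 gave nearly the same values. KO4 and KO5 both lay above the other 6 libraries for 20 of the 35, against 14.1% of all genes. Without KO4, 21 of the 33 genes then tested were positive, with a median of 0.0821. With KO4 and KO5 both left out, 15 of 29 were positive and 14 negative, with a median of 0.0218, beside 52.0% positive among all genes. Limma then called 0 of the 29, beside 0.00617% of all genes (1 gene, Gsdme, lower). At an unadjusted p under 0.05, Ccl5 was higher and Cxcl13 lower, against 1.03% and 1.71% of all genes. The median was 0.375 without WT3, and it was 0.395 when limma weighted libraries by their quality. For 6 of the tested genes (Cxcl1, Cxcl2, Cxcr2, Ccl3, Ccl4 and Ccr7) the WT mean was below 10, so they passed the filter through Gsdme-/- libraries.

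**Figure D1:**
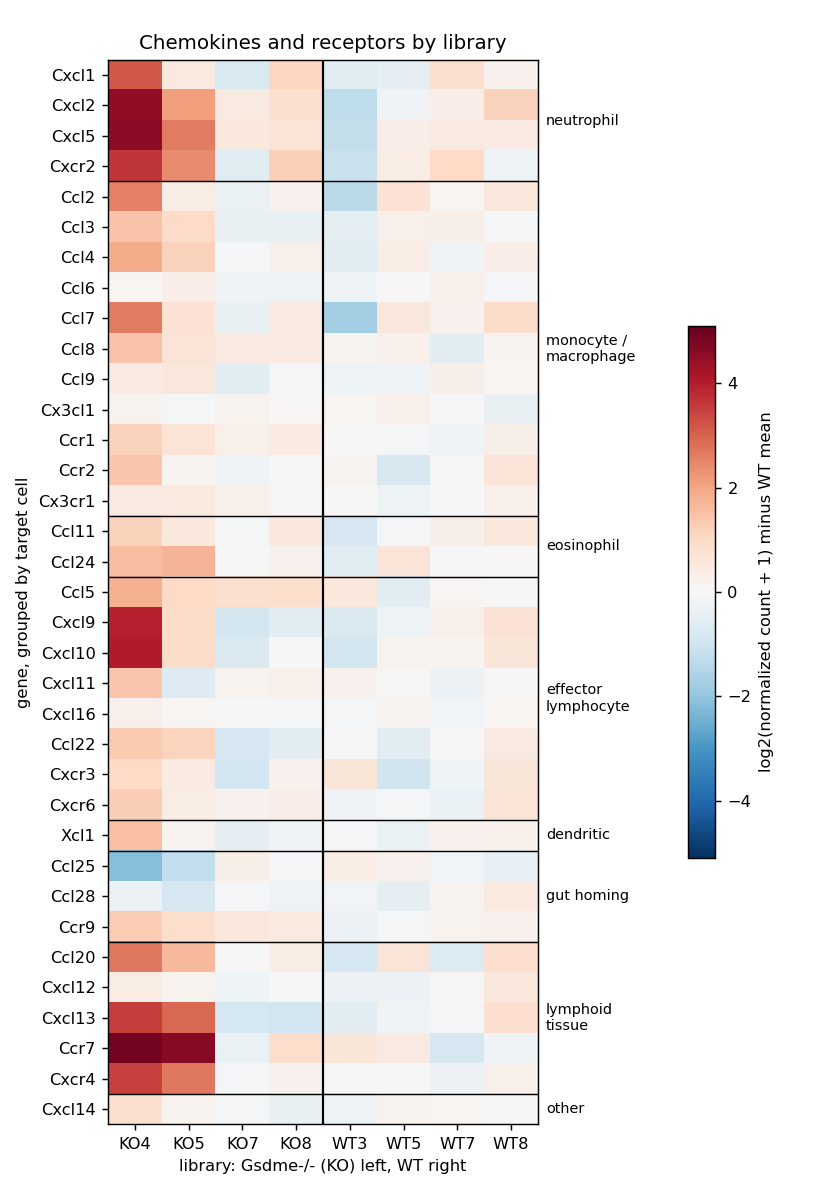
Heat map of the 35 tested chemokine and receptor genes (rows, grouped by target cell) in 4 Gsdme-/- libraries on the left and 4 WT libraries on the right. Colour gives log2(normalized count + 1) minus the mean of the WT libraries. KO4 is the darkest red column, KO5 follows for part of the genes, and Ccl25 is the one row in which KO4 is the lowest library.

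The genotypes did not overlap in 4 genes, Ccl5, Ccr9, Ccl8 and Cxcl5, each with all 4 Gsdme-/- libraries above all 4 WT libraries. This was 4 of 35, where 1.31% of all genes tested were higher without overlap. No gene of the 35 was lower without overlap, where the share of all genes was 1.19%. The lowest Gsdme-/- library of these 4 genes was KO7 or KO8. Leaving out libraries cannot create overlap, so these 4 had to remain without overlap when KO4 and KO5 were left out. They were the only ones higher without overlap among the 29 then tested, against 5.43% of all genes in that smaller set. Cxcl13 was then lower without overlap, against 5.92% of all genes.

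Ccl5 (RANTES) attracts effector T cells, NK cells and monocytes, and cytotoxic lymphocytes make much of it. The gene lies on chromosome 11 (83525778 to 83530518, minus strand, GRCm38). Its levels were 242 (KO4), 139 (KO5), 122 (KO7) and 129 (KO8), against 98.7 (WT3), 45.3 (WT5), 71.9 (WT7) and 66.2 (WT8). All Gsdme-/- libraries exceeded the highest WT library, and KO4 stood above the other 3. The means were 158 ± 56.7 in Gsdme-/- and 70.5 ± 22 in WT (SD, n = 4 each), a log2 fold change of 1.15 (SE 0.290, limma unadjusted p = 0.00351, adjusted p = 0.849). It was 0.92 without KO4 and 0.87 without KO4 and KO5 (limma adjusted p = 0.999).

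Ccr9 encodes the receptor for CCL25 on small intestinal T cells and plasma cells. It was low, with 96.8 (KO4), 74.3 (KO5), 59.7 (KO7) and 55.7 (KO8), against 31.8 (WT3), 36.9 (WT5), 44.3 (WT7) and 45.5 (WT8). The 2 genotypes were separated by a gap of about 10 counts, and again KO4 was highest. The log2 fold change was 0.82 (SE 0.227, limma unadjusted p = 0.00589, adjusted p = 0.849), and 0.54 without KO4 and KO5.

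T cell and NK cell markers were highest in the same library. Summed over the 15 markers of that list, counts were 3349 (KO4), 2055 (KO5), 1263 (KO7) and 1336 (KO8), against 1303 (WT3), 743 (WT5), 873 (WT7) and 752 (WT8). All 14 tested markers had a positive log2 fold change (median 0.97), and 3 of them, Trac, Cd247 and Gzmb, did not overlap between genotypes, beside 1.31% of all genes. None of the 14 was called by limma, and Klrb1c reached the minimum mean only through Gsdme-/- libraries. Without KO4 and KO5, 11 of 13 were positive (median 0.44). The same 3 were without overlap, which leaving out libraries cannot change, beside 5.43% of all genes. Trac, the T cell receptor alpha constant gene, had 184 (KO4), 147 (KO5), 68.2 (KO7) and 66.6 (KO8), against 65.8 (WT3), 42.9 (WT5), 34.3 (WT7) and 34.8 (WT8). The part that T cell content had in the Ccl5 and Ccr9 differences was not tested.

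**Figure D2:**
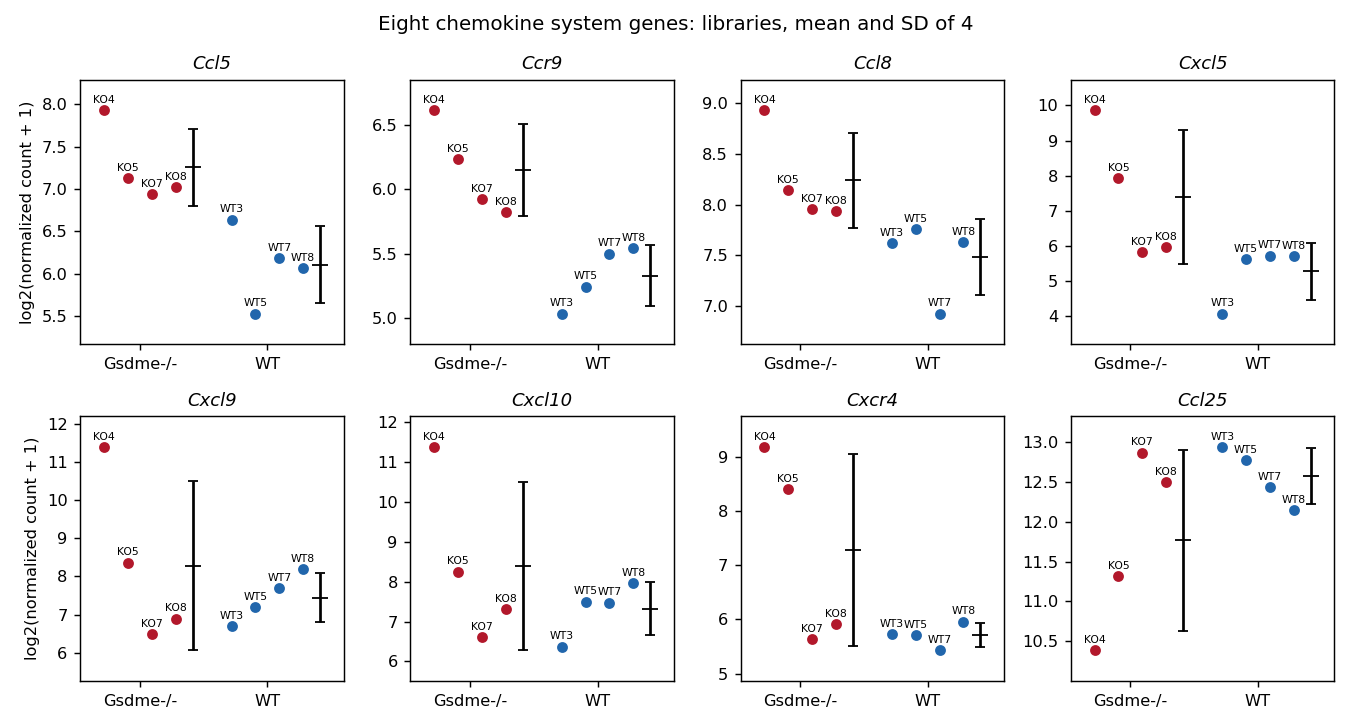
Each panel shows 1 gene as log2(normalized count + 1), with 4 Gsdme-/- libraries in red on the left, 4 WT libraries in blue on the right, and the mean ± SD beside each group. In the upper row all Gsdme-/- libraries lie above all WT libraries, while in the lower row KO7 and KO8 lie among or below the WT libraries. KO4 and KO5 lie outside the WT range in the lower row, KO5 only narrowly for Cxcl9 and Cxcl10.

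Ligands and receptor of the neutrophil circuit were mostly low, and of the 4 tested, Cxcl1, Cxcl2 and Cxcr2 reached the minimum mean only through Gsdme-/- libraries. CXCL1, CXCL2, CXCL3 and CXCL5 all signal through CXCR2, the main neutrophil chemokine receptor. Cxcl5, made chiefly by epithelial cells, had 931 (KO4), 244 (KO5), 56.0 (KO7) and 62.1 (KO8), against 15.9 (WT3), 48.8 (WT5), 52.0 (WT7) and 51.3 (WT8). KO4 was 22.2 times the WT mean, whereas KO7 and KO8 exceeded the highest WT library only narrowly. Its log2 fold change was 2.12 (SE 0.864, limma unadjusted p = 0.0375, adjusted p = 0.849), and 0.62 without KO4 and KO5. Cxcl2 had 120 (KO4), 21.8 (KO5), 6.09 (KO7) and 8.21 (KO8), against 1.13 (WT3), 3.57 (WT5), 5.53 (WT7) and 10.8 (WT8). KO4 and KO5 lay above every WT library, and KO7 and KO8 lay within the WT range (log2 fold change 1.98, SE 0.912, limma adjusted p = 0.849). Without KO4 and KO5, Cxcl5 alone of this group was high enough to test. Cxcl1, given after its values were seen although the rule for named genes did not choose it, had 71.9 (KO4), 10.5 (KO5), 3.65 (KO7) and 16.4 (KO8), against 4.54 to 13.3 in WT. Cxcl3, given likewise, was too low to test, with 32.3 (KO4), 3.75 (KO5), 1.22 (KO7) and 4.56 (KO8), against 0 to 5.79 in WT.

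The receptor gene Cxcr2 had 88.5 (KO4), 36.8 (KO5), 3.65 (KO7) and 15.5 (KO8), against 2.27 (WT3), 8.34 (WT5), 13.3 (WT7) and 4.97 (WT8) (log2 fold change 1.66, SE 0.873, limma adjusted p = 0.849). The order of the libraries, KO4 first and KO5 second, was that of its ligands Cxcl5 and Cxcl2. For its ligands Cxcl1 and Cxcl3, KO4 was first but KO5 was not second. The 11 neutrophil markers summed to 1973 (KO4) and 595 (KO5), but 166 (KO7) and 267 (KO8), against 197 to 226 in WT. The granule genes Mpo and Ngp, markers of immature neutrophils, were listed at under 1 count in every library, while Csf3r, the G-CSF receptor gene, had 304 (KO4) and 81.9 (KO5) against 32.2 to 57.5 in WT. Ltf, the lactoferrin gene, which epithelia also express, had 749 (KO4) and 114 (KO5), but 39.0 (KO7) and 47.5 (KO8), against 66.4 to 88.6 in WT.

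Cxcl1, Cxcl2 and Cxcl3 are neighbours on chromosome 5, and their promoters are shown because their levels had one pattern, KO4 far above the rest. The sequences are from RefSeq (GRCm38.p6, plus strand) and run from 250 bases before the gene start to 50 after it, at chr5:90890995-90891294 for Cxcl1, chr5:90903649-90903948 for Cxcl2 and chr5:90785851-90786150 for Cxcl3. Capitals mark matches to the κB motif, the DNA element bound by NF-κB, which was searched on both strands.
Cxcl1: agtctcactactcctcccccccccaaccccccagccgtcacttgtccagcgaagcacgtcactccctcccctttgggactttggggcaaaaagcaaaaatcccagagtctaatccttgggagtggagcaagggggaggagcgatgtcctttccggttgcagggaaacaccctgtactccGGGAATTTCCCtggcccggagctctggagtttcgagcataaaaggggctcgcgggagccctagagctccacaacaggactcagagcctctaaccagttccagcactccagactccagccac
Cxcl2: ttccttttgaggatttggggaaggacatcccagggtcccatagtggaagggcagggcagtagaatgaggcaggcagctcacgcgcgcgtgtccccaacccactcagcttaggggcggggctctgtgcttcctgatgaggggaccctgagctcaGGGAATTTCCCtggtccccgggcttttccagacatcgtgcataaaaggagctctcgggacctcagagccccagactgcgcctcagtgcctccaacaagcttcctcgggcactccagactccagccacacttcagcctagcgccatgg
Cxcl3: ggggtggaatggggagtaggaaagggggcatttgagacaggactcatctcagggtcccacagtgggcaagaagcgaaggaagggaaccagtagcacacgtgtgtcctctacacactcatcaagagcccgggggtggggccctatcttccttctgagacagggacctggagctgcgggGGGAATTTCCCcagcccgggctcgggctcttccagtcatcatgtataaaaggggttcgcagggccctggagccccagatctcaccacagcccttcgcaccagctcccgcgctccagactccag
Each of these promoters held the same run, GGGAATTTCCC, in which 2 overlapping matches on opposite strands are joined. It began 71 bases before the start of Cxcl1, 97 before that of Cxcl2 and 73 before that of Cxcl3. Promoters were at hand for 28 of the 38 genes, and 7 of these 28 (Cxcl1, Cxcl2, Cxcl3, Cxcl10, Ccl9, Ccl20 and Ccr1) held a κB match, where 8.46% of all 32851 promoter windows did. A match of letters describes the sequence only.

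The CXCR3 ligands parted from one another. CXCL9 and CXCL10 are induced by interferon-gamma and attract CXCR3-bearing T cells and NK cells, and CXCL11 is another ligand of this receptor, although GENCODE M21 lists mouse Cxcl11 as a polymorphic pseudogene, so its RNA need not encode a working protein here. Cxcl9 had 2698 (KO4), 328 (KO5), 88.9 (KO7) and 118 (KO8), against 102 (WT3), 145 (WT5), 207 (WT7) and 291 (WT8). Cxcl10 had 2657 (KO4), 303 (KO5), 96.2 (KO7) and 157 (KO8), against 81.7 (WT3), 180 (WT5), 177 (WT7) and 247 (WT8). KO4 stood at 14.5 times the WT mean for Cxcl9 and 15.5 times for Cxcl10, and KO7 and KO8 lay below the WT mean for both. The log2 fold changes were 0.84 for Cxcl9 (SE 0.963, limma adjusted p = 0.877) and 1.06 for Cxcl10 (SE 0.920, limma adjusted p = 0.849). They were -0.19 and 0.0604 without KO4, and -0.75 and -0.37 without KO4 and KO5. Cxcl11, which lies beside them on chromosome 5 and is given here although the rule did not choose it, had 237 (KO4), 54.8 (KO5), 101 (KO7) and 107 (KO8), against 71.9 to 102 in WT. KO4 was 2.67 times the WT mean for Cxcl11, and KO5 was the lowest of all 8 libraries. Per kb of exon, Cxcl9 and Cxcl10 made up 7.47% and 9.85% of all summed ligand counts in KO4, and no more than 1.46% and 1.66% in any WT library.

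The Cxcl9 and Cxcl10 promoters are printed for comparison, on the minus strand, at chr5:92328030-92328329 and chr5:92348840-92349139 (RefSeq, GRCm38.p6). Capitals mark κB matches, the interferon-stimulated response element (GAAA, any 2 bases, GAAA) and the gamma-activated site TTCNNNGAA.
Cxcl9: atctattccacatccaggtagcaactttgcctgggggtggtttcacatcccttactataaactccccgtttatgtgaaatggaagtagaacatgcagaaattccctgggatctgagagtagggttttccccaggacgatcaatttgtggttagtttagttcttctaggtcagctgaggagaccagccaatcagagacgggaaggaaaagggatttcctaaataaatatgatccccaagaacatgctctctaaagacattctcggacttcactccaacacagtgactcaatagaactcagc
Cxcl10: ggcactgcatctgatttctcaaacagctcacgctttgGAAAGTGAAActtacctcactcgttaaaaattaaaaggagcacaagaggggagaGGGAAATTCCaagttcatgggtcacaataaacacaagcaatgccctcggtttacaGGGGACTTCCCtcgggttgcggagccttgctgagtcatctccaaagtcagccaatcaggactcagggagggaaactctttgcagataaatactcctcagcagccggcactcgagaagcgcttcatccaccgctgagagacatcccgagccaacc
The Cxcl10 window held the response element as GAAAGTGAAA, beginning 213 bases before the start, and κB matches beginning 159 and 104 bases before it. The Cxcl9 window held none of these letters, which says only that they are not in this stretch. Of the 28 genes, 3 held the response element (Cxcl10, Cxcl14 and Ccl19) and 1 the gamma-activated site (Cxcl14), where 3.44% and 8.30% of all promoter windows did.

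Cytokines that induce these ligands were listed after the chemokine values had been seen. Ifng, the interferon-gamma gene, had 52.5 (KO4), 3.00 (KO5), 2.44 (KO7) and 0 (KO8), against 0 to 5.53 in WT. Tnf, which acts through NF-κB, had 427 (KO4) and 66.1 (KO5), but 25.6 (KO7) and 32.9 (KO8), against 19.3 to 48.8 in WT. Il1b had 416 (KO4) and 184 (KO5), but 28.0 (KO7) and 54.8 (KO8), against 13.6 to 73.7 in WT. Ifng was high in KO4 only, while Tnf and Il1b were above all WT libraries in KO4 and KO5. Cxcl9 and Cxcl10 were highest in KO4 and also above all WT libraries in KO5. The part that these cytokines had in the ligand levels was not tested. Of the 8 genes of this list, 5 were tested, all 5 with positive log2 fold changes (median 1.54), and 0 were called by limma. Il6 and Lta reached the minimum mean only through Gsdme-/- libraries, and Ifng was too low to test. Only 3 were tested without KO4 and KO5, with a median of 0.0503.

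Receptors of effector lymphocytes were low and overlapped between genotypes. Cxcr3 ran from 7.31 to 32.3 in Gsdme-/- and from 7.15 to 24.0 in WT, and Cxcr6, which marks tissue-resident T cells, from 31.7 to 66.4 in Gsdme-/- and from 21.0 to 43.0 in WT. Cxcl16, the membrane-bound ligand of CXCR6, was even, with 1763 (KO4), 1572 (KO5), 1473 (KO7) and 1388 (KO8), against 1409 (WT3), 1636 (WT5), 1336 (WT7) and 1574 (WT8). Its log2 fold change was 0.0563 with a 95% interval from -0.175 to 0.288 (limma adjusted p = 0.923), a range that excludes a 2-fold difference in either direction. Ccl22, a ligand of CCR4 on regulatory and type 2 T cells, ran from 35.3 to 163 in Gsdme-/-, with KO4 and KO5 above all others, and from 44.1 to 90.2 in WT. Xcl1, which attracts XCR1-bearing dendritic cells, had 37.8 (KO4), 14.3 (KO5), 8.53 (KO7) and 11 (KO8), against 11.3 (WT3), 9.53 (WT5), 14.4 (WT7) and 14.9 (WT8). KO4 alone was high for Xcl1.

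The monocyte and macrophage genes had a median log2 fold change of 0.42 over 11 tested genes, 10 of them positive, and of 0.0218 over 9 genes, 5 of them positive, without KO4 and KO5. Ccl8 encodes a macrophage-made ligand of several CC receptors. It had 487 (KO4), 282 (KO5), 247 (KO7) and 244 (KO8), against 196 (WT3), 216 (WT5), 121 (WT7) and 197 (WT8). All Gsdme-/- libraries were above all WT libraries, with means of 315 ± 116 in Gsdme-/- and 182 ± 42.1 in WT (SD, n = 4 each), a log2 fold change of 0.76 (SE 0.263, limma unadjusted p = 0.0188, adjusted p = 0.849) and of 0.46 without KO4 and KO5. Ccr1, a receptor of monocytes and neutrophils for CCL3, CCL5, CCL6 and CCL9, had 504 (KO4), 366 (KO5), 273 (KO7) and 300 (KO8), against 220 (WT3), 218 (WT5), 196 (WT7) and 276 (WT8). KO7 alone lay within the WT range, just under WT8 (log2 fold change 0.63, SE 0.200, limma unadjusted p = 0.0118, adjusted p = 0.849, and 0.34 without KO4 and KO5). Cx3cr1, the fractalkine receptor gene of resident gut macrophages, had 240 (KO4), 253 (KO5), 217 (KO7) and 188 (KO8), against 182 (WT3), 150 (WT5), 178 (WT7) and 215 (WT8), with overlap through KO8 and WT8 (log2 fold change 0.31, SE 0.147, limma adjusted p = 0.849, and 0.167 without KO4 and KO5).

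Ccl2 and Ccl7, ligands of CCR2, exceeded the WT libraries in KO4 alone. Ccl2 had 443 (KO4) and 57.3 to 94.6 in the other 3, against 27.2 to 124 in WT, and Ccl7, its neighbour on chromosome 11, had 280 (KO4) and 32.9 to 72.8 in the other 3, against 12.5 to 83.6 in WT. Their receptor gene Ccr2, a marker of newly recruited monocytes, had 420 (KO4) and 134 to 176 in the other 3, against 89.3 to 252 in WT. KO4 was 5.29 times the WT mean for Ccl2, 5.28 times for Ccl7 and 2.50 times for Ccr2. Without KO4 and KO5 the log2 fold changes were -0.0629 for Ccl2, 0.0218 for Ccl7 and -0.164 for Ccr2. Ccl3 and Ccl4, the MIP-1 ligands of CCR1 and related receptors, were low, from 7.30 to 28.6 and from 8.53 to 35.9 in Gsdme-/-, and from 6.81 to 12.2 and from 5.67 to 11.9 in WT. The 12 monocyte and macrophage markers summed to 15111 (KO4), 11663 (KO5), 8289 (KO7) and 8999 (KO8), against 8684 to 11482 in WT, with 9 positive and 3 negative log2 fold changes and a median of 0.209. Their direction turned without KO4 and KO5, with 2 positive and 10 negative and a median of -0.097.

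Among the other ligands of this circuit, Ccl6, Ccl9 and Cx3cl1 had nearly equal means. Ccl6, a CCR1 ligand of mice that myeloid cells make, had 5287 (KO4), 6201 (KO5), 4144 (KO7) and 4122 (KO8), against 4137 (WT3), 4971 (WT5), 5861 (WT7) and 4709 (WT8). The genotypes overlapped fully, with a log2 fold change of -0.0049 and a 95% interval from -0.368 to 0.359 (limma adjusted p = 0.997). Ccl9, its neighbour and a like CCR1 ligand, had 923 (KO4), 1047 (KO5), 467 (KO7) and 670 (KO8), against 580 (WT3), 617 (WT5), 867 (WT7) and 753 (WT8). Cx3cl1, which encodes fractalkine, a membrane-bound ligand shed by ADAM proteases, had 2662 (KO4), 2295 (KO5), 2691 (KO7) and 2488 (KO8), against 2525 (WT3), 2850 (WT5), 2422 (WT7) and 1838 (WT8). The 95% interval of its log2 fold change ran from -0.214 to 0.390 (limma adjusted p = 0.910), so for Cx3cl1 as for Ccl6 a 2-fold difference lay outside the interval.

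**Figure D3:**
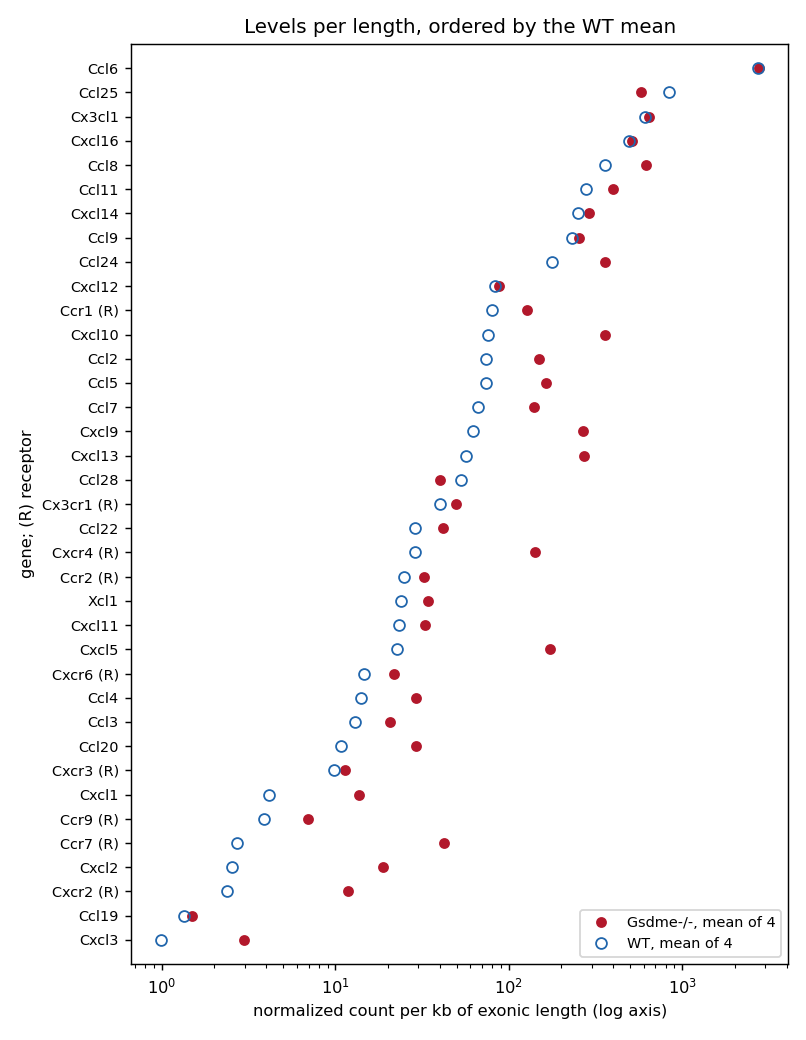
Mean level of each gene per kb of exonic length (log axis) in Gsdme-/- (filled red, n = 4) and WT (open blue, n = 4), ordered by the WT mean, with (R) marking receptors and Ccl21a, at 0 in all libraries, left out. Ccl6 is highest at 2751 in Gsdme-/- and 2741 in WT, and receptors sit lower than the main ligands, Ccr1 being the highest of them in WT.

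Levels of different genes were compared per kb of exonic length in GENCODE M21. On that scale Ccl6 had the highest level, with 2751 normalized counts per kb in Gsdme-/- and 2741 in WT. Ccl25 was second in WT, at 575 in Gsdme-/- against 835 in WT, followed by Cx3cl1, at 645 in Gsdme-/- against 613 in WT. The Ccl25 length of 7445 bases joins all annotated transcripts, which lowers its level if a short one dominates. Receptors were far lower, with Ccr1 at 127 in Gsdme-/- against 80.3 in WT as the highest in WT, and Cxcr4 at 142 in Gsdme-/- against 28.6 in WT as the highest in Gsdme-/-.

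The gut-homing ligands Ccl25 and Ccl28 had lower means in Gsdme-/-. Ccl25, made by small intestinal epithelium, had 1339 (KO4), 2558 (KO5), 7439 (KO7) and 5782 (KO8), against 7818 (WT3), 6994 (WT5), 5521 (WT7) and 4530 (WT8). KO4 and KO5 lay below every WT library, at 0.215 and 0.411 times the WT mean, and KO7 and KO8 lay inside the WT range. The log2 fold change was -0.80 (SE 0.494, limma adjusted p = 0.849), and 0.109 without KO4 and KO5. Mature enterocyte markers were low in the same libraries, as with Anpep, the brush border aminopeptidase N gene, at 24511 (KO4), 27493 (KO5), 143100 (KO7) and 105670 (KO8), against 85851 to 148390 in WT. Epcam, a general epithelial marker, had 34389 (KO4) and 36133 (KO5), but 45984 (KO7) and 39312 (KO8), against 38894 to 50707 in WT. Ccl28, a mucosal ligand of CCR10 and CCR3, had 199 (KO4), 136 (KO5), 239 (KO7) and 205 (KO8), against 222 (WT3), 176 (WT5), 272 (WT7) and 348 (WT8) (log2 fold change -0.37, SE 0.240, limma adjusted p = 0.849). Ligand and receptor of the CCL25 pair thus parted in KO4, the library with the least Ccl25 and the most Ccr9.

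Chemokines of lymphoid tissue divided KO4 and KO5 from the rest. Ccr7, which guides naive T cells and mature dendritic cells, had 172 (KO4), 147 (KO5), 3.65 (KO7) and 10 (KO8), against 7.94 (WT3), 7.15 (WT5), 2.21 (WT7) and 4.14 (WT8). Its log2 fold change of 2.52 was the largest of the 35 genes (SE 1.15, limma unadjusted p = 0.0567, adjusted p = 0.849), and without KO4 and KO5 its mean was too low to test. Cxcr4, the CXCL12 receptor gene of most lymphocytes, had 580 (KO4), 336 (KO5), 48.7 (KO7) and 59.3 (KO8), against 52.2 (WT3), 51.2 (WT5), 42 (WT7) and 61.3 (WT8). The log2 fold change was 1.58 (SE 0.749, limma adjusted p = 0.849), and 0.0686 without KO4 and KO5. Cxcl13, made by follicular stroma to draw in B cells, had 716 (KO4), 472 (KO5), 31.7 (KO7) and 30.1 (KO8), against 40.9 (WT3), 51.2 (WT5), 57.5 (WT7) and 111 (WT8). KO7 and KO8 lay below every WT library for Cxcl13, so its log2 fold change was 1.15 in all libraries (SE 1.04, limma adjusted p = 0.849) and -0.95 without KO4 and KO5 (limma adjusted p = 0.999).

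Receptors that partner these ligands but were outside the 38 genes showed the same 2 libraries, and were picked after their values were seen. Cxcr5, the CXCL13 receptor gene of B cells, had 483 (KO4), 315 (KO5), 7.31 (KO7) and 5.48 (KO8), against 3.32 to 8.28 in WT. Ccr6, the CCL20 receptor gene, had 162 (KO4), 110 (KO5), 0 (KO7) and 1.83 (KO8), against 0 to 5.53 in WT. Ccl20, made by follicle-associated epithelium, ran from 13.4 to 91.3 in Gsdme-/-, with KO4 and KO5 highest, and from 6.81 to 24.8 in WT. B cell markers were high in the same libraries, as Pax5, the B lineage transcription factor gene, had 973 (KO4) and 543 (KO5), but 12.2 (KO7) and 11.9 (KO8), against 4.54 to 10.7 in WT. Bank1, a B cell scaffold gene, likewise had 566 (KO4) and 358 (KO5), but 36.5 (KO7) and 33.8 (KO8), against 17.0 to 29.0 in WT. These were the 2 of 10 B cell markers without overlap, beside 1.31% of all genes. Of them, Pax5 reached the minimum mean only through Gsdme-/- libraries. Ltb, which encodes the lymphotoxin subunit that organises follicles, had 469 (KO4) and 402 (KO5), but 34.1 (KO7) and 45.6 (KO8), against 31.8 to 45.5 in WT. The follicle epithelium list of 9 genes summed to 21953 (KO4) and 15104 (KO5), but 8525 (KO7) and 8588 (KO8), against 8396 to 9646 in WT, with Marcksl1 and Pglyrp1 its most abundant genes. Of its 8 tested genes, 7 had positive log2 fold changes, and 3 of 7 without KO4 and KO5. Tnfrsf11a was the negative one, with 560 (KO4) and 614 (KO5), against 719 to 930 in WT. Gp2, which reached the minimum mean only through Gsdme-/- libraries, had 13.8 (KO4) and 65.3 (KO5), against 3.57 to 7.94 in WT. The part that B cell and follicle content had in the differences of the lymphoid tissue genes was not tested.

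Cxcl12, a stromal ligand of CXCR4, was even beside its receptor. It had 860 (KO4), 755 (KO5), 576 (KO7) and 671 (KO8), against 536 (WT3), 537 (WT5), 682 (WT7) and 979 (WT8), and the highest library was a WT one. Its log2 fold change was 0.0968 (SE 0.208, limma adjusted p = 0.935). The 9 fibroblast and stromal markers summed to 23080 to 33131 in Gsdme-/- and to 21418 to 39039 in WT, with WT8 the highest there too. Ccl19 had 0 to 2.44 in Gsdme-/- and 0 to 2.38 in WT. Ccl21a was at 0 in all 8 libraries, which allows up to 3 reads in each by counting error alone. Both belong to a stretch of chromosome 4 with near-identical copies, so reads may be lost or assigned elsewhere. One copy, Ccl21e, had 88.5 (KO8) and at most 3.57 in the other 7 libraries.

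**Figure D4:**
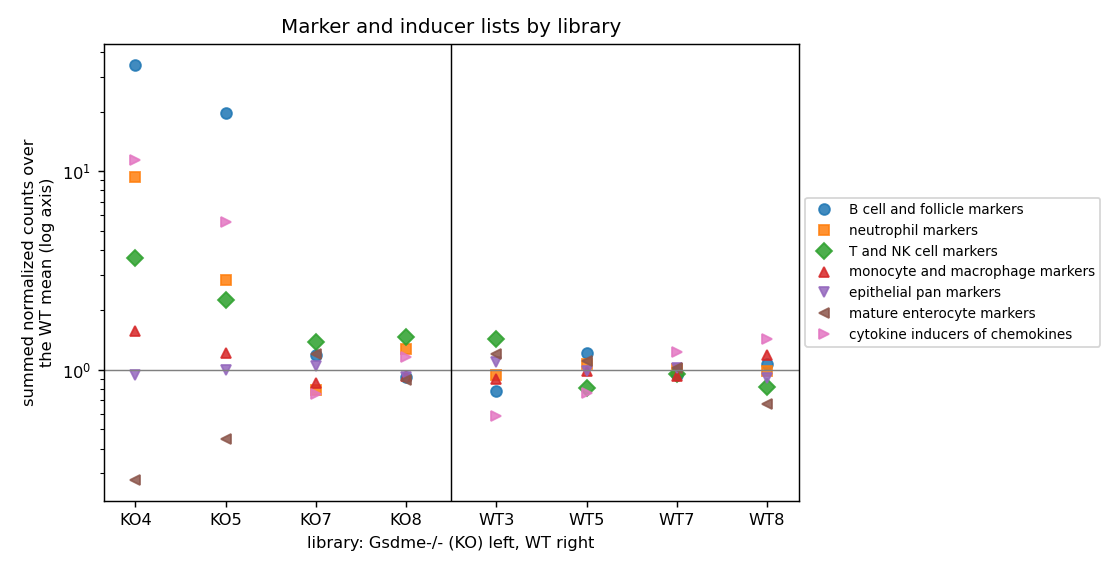
Summed normalized counts of 7 gene lists in each library, divided by the mean of the WT libraries (log axis), with Gsdme-/- libraries on the left and WT libraries on the right. B cell and follicle markers reach 34.4 times the WT mean in KO4 and 19.6 times in KO5, mature enterocyte markers stand at 0.278 and 0.444 times, and epithelial markers stay near 1 in all libraries.

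Eosinophil ligands were higher in mean with overlap. Ccl11, eotaxin-1, which keeps eosinophils in the gut wall, had 631 (KO4), 412 (KO5), 264 (KO7) and 411 (KO8), against 157 (WT3), 273 (WT5), 351 (WT7) and 427 (WT8) (log2 fold change 0.53, SE 0.343, limma adjusted p = 0.849, and 0.22 without KO4 and KO5). Ccl24, eotaxin-2, had 651 (KO4), 735 (KO5), 214 (KO7) and 256 (KO8), against 142 (WT3), 344 (WT5), 210 (WT7) and 223 (WT8) (log2 fold change 0.88, SE 0.441, limma adjusted p = 0.849, and 0.0978 without KO4 and KO5). For Ccl24 it was KO5 that was highest, and KO7 and KO8 lay inside the WT range. The 10 eosinophil and mast cell markers summed to 770 to 1006 in Gsdme-/- and 703 to 907 in WT, of which Kit and Siglecf, both also expressed outside these cells, made up most, and Epx, the eosinophil peroxidase gene, was at 0 in 7 of the 8 libraries. Cxcl14, an epithelial and stromal chemokine with no settled receptor, had 809 (KO4), 520 (KO5), 434 (KO7) and 346 (KO8), against 381 (WT3), 510 (WT5), 490 (WT7) and 454 (WT8) (log2 fold change 0.14, SE 0.238, limma adjusted p = 0.921).

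**Figure D5:**
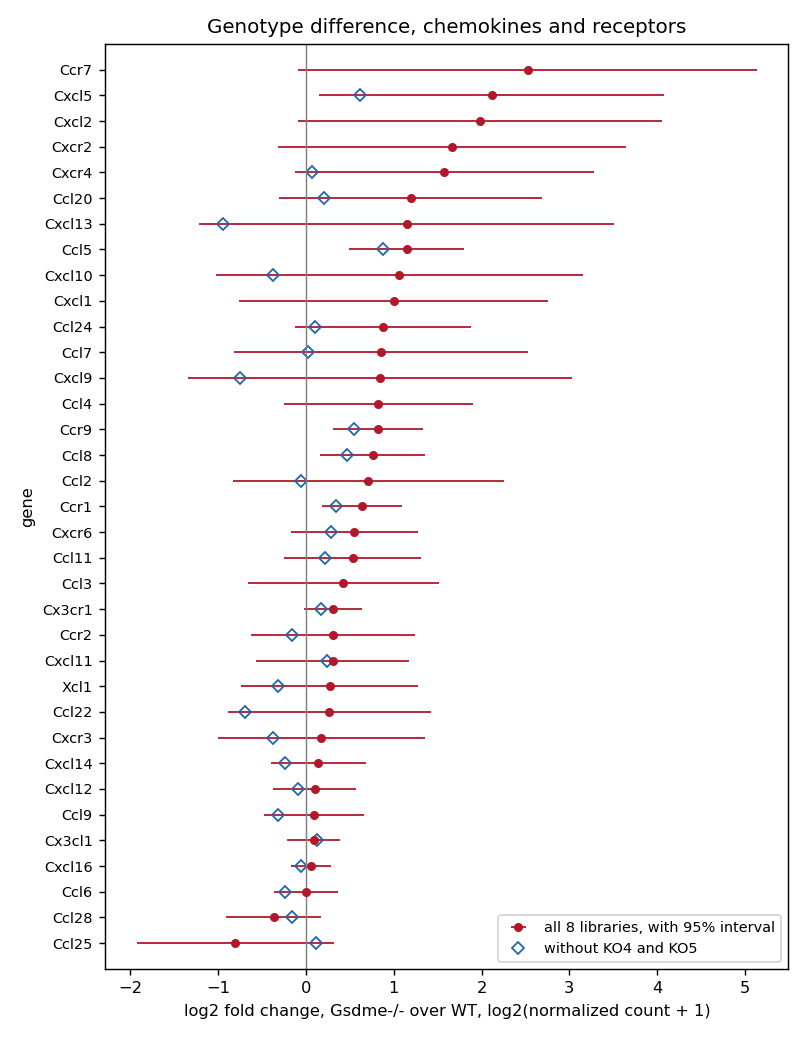
Log2 fold change of each of the 35 tested genes, Gsdme-/- over WT, on the log2(normalized count + 1) scale, ordered by size. Red points with 95% intervals use all 8 libraries, and blue diamonds leave out KO4 and KO5, where 29 genes were tested. Intervals that exclude 0 belong to Ccl5, Ccr9, Ccr1, Ccl8 and Cxcl5, none past the adjusted threshold, and the diamonds lie between -0.95 and 0.87.

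The rest of the chemokine pathway gave no call either. Among 18 further ligands and receptors, 10 were tested, 8 with positive and 2 with negative log2 fold changes (median 0.385), and limma called 0. Of the 10, Ccr4, Ccr6 and Cxcr5 reached the minimum mean only through Gsdme-/- libraries. Only 7 were tested without KO4 and KO5, 3 positive and 4 negative (median -0.167). Ccl12, a CCR2 ligand of mice, was the 1 of 10 without overlap, beside 1.31% of all genes. It had 47.0 (KO4), 31.5 (KO5), 25.6 (KO7) and 28.3 (KO8), against 11.3 (WT3), 21.4 (WT5), 19.9 (WT7) and 16.6 (WT8) (log2 fold change 0.90, SE 0.291, limma unadjusted p = 0.0136, adjusted p = 0.849). A list of 6 atypical and related receptors held Ackr1, Ackr2, Ackr3, Ackr4, Ccrl2 and Cmklr1. All 6 were tested, 5 of them positive (6 of 6 without KO4 and KO5). The most abundant, Ackr3 and Ackr4, had log2 fold changes of 0.29 and -0.0453.

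The list of 27 genes for chemokine receptor signalling also held Fpr1 and Fpr2, which are themselves receptor genes. Of the 27, 26 were tested, 21 positive and 5 negative, with a median of 0.388 and 0 calls by limma. Of these, 16 were positive and 8 negative of the 24 tested without KO4 and KO5 (median 0.0258). Rgs18 and Fpr2 reached the minimum mean only through Gsdme-/- libraries. Rgs16, an inhibitor of G protein signalling, had 71.9 (KO4), 47.3 (KO5), 39.0 (KO7) and 35.6 (KO8), against 17.0 (WT3), 21.4 (WT5), 25.4 (WT7) and 24.0 (WT8) (log2 fold change 1.07, SE 0.269, limma unadjusted p = 0.00342, adjusted p = 0.849). Pik3r5, a regulatory subunit of the PI3 kinase that G proteins activate, ran from 213 to 249 in Gsdme-/- and from 103 to 194 in WT, with KO7 the highest. Vav1, a leukocyte activator of Rac, ran from 208 to 516 in Gsdme-/- and from 161 to 200 in WT. These were the 3 of 26 signalling genes without overlap, beside 1.31% of all genes. Of 13 processing and presentation genes all were tested, 10 positive and 3 negative (median 0.12), and 0 were called by limma. The split was 6 positive and 6 negative without KO4 and KO5 (median 0.0165). Mmp8 reached the minimum mean only through Gsdme-/- libraries. Ndst1, which sulfates the heparan chains that hold chemokines, ran from 1596 to 2622 in Gsdme-/- and from 1410 to 1529 in WT. It was the 1 of 13 without overlap, beside 1.31% of all genes. Dpp4, a brush border protease that clips several chemokines, had 5969 (KO4) and 5306 (KO5), but 15239 (KO7) and 12315 (KO8), against 11786 to 15432 in WT, and was picked after its values were seen. Dendritic cell markers summed to 595 to 1222 in Gsdme-/- and 590 to 923 in WT, endothelial and lymphatic markers to 2946 to 4635 in Gsdme-/- and 2734 to 3531 in WT, and plasma cell markers to 129009 to 180212 in Gsdme-/- and 92584 to 193710 in WT.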

How the data were processed

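The authors deposited 1 table of normalized signal for 8 libraries, read counts per gene over a size factor per library. DESeq2, featureCounts, Subread, SAMtools, HISAT2 and the build GRCm38 appear in the submitters' processing notes, and per the labels' protocols the libraries were poly(A)-selected and strand-specific. The sources used here give no versions, annotation release or strand setting. All values (100%) were whole multiples of 1 step per library within 0.01 reads, so reads were recovered, and size factors recomputed from them equalled the divisors (0.821 to 1.33). No 2 libraries agreed within sampling noise (lowest chi-square per degree of freedom 12.5). Of the per-sample columns 0 were left unused.

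Column names give a genotype, but their numbers are not the mouse numbers of the labels, so columns were assigned to genotypes only. Differences were tested with limma-trend (version 3.58.1 in R 4.3.3) after adding a pseudocount of 1 and taking log2, over 16352 genes with a mean of at least 10, with Benjamini-Hochberg adjustment over all of them and a call at an adjusted p under 0.05. Fold changes on this scale understate changes of low genes. Alternatives were other pseudocounts, filters and scalings, array weights, edgeR 4.0.16 and DESeq2 1.42.0 on recovered reads, and each library left out, with KO4 and KO5 left out together added after the data were seen. On simulated data for the Gsdme-/- against WT comparison over 16352 genes, 49% of genes changed 2-fold and 86% of genes changed 4-fold were called. Those genes were drawn independently, without a shift shared across genes as in KO4 and KO5. The shares need not hold for the measured data, in which limma did not call Gsdme.

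The chemokine genes, gene lists, named-gene rule and tests were chosen with earlier results of these data known. Every chemokine gene is named, and per-library values are given for those called, without overlap, among the 10 smallest unadjusted p or among the 3 most abundant of their target cell group. From other lists, called genes, genes without overlap or else the 2 most abundant were to be named, and some marker lists are given by their sums. Positions are from GENCODE M21, promoters from RefSeq. Limits from a count of 0 cover counting error of reads only.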

Additional observations from a re-analysis of the deposited data

Results flagged for a closer look

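Each of the 35 tested genes and Gsdme was examined for a single library far from the other 3 of its genotype on the log2 scale, by Dixon's ratio of gap to range at its 95% critical value for 4 samples. Of 72 such groups 3 stood out, where chance gives about 1 in 20. Cxcr6 had 66.4 (KO4), against 31.7 to 35.3 in the other 3 Gsdme-/- libraries (ratio 0.855). Cxcl5 had 15.9 (WT3), against 48.8 to 52.0 in the other 3 WT libraries (ratio 0.946). Ccl8 had 121 (WT7), against 196 to 216 in the other 3 WT libraries (ratio 0.839). The log2 fold change of Cxcr6 was 0.31 without KO4, that of Cxcl5 1.71 without WT3 and that of Ccl8 0.57 without WT7.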

How the results depend on the processing

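No paired analysis was possible because the column names carry none of the mouse numbers of the labels, and the labels tie no mouse of one genotype to a mouse of the other. In none of the alternatives was any of the 35 chemokine genes called, and changes of pseudocount, filter and TMM scaling turned the direction of none. DESeq2 called 8 genes of all tested higher and 1 lower, against 1 and 0 by limma, and without KO4 and KO5 limma called 0 higher and 1 lower. Leaving out 1 library gave 0 to 1 genes called higher. The genes without overlap numbered 4 to 8 when 1 library was left out, a step that cannot create overlap, with 7 without KO7 and 8 without WT8. Over all genes, 658 of 16353 were then higher without overlap without KO7 and 528 of 16318 without WT8, against 215 of 16352 with all libraries. Overlap does not depend on edgeR or DESeq2, which gave no such count.

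Without KO4 and KO5 the log2 fold change turned to -0.0629 for Ccl2, -0.314 for Ccl9, -0.164 for Ccr2, -0.751 for Cxcl9, -0.372 for Cxcl10, -0.0534 for Cxcl16, -0.692 for Ccl22, -0.374 for Cxcr3, -0.323 for Xcl1, -0.0902 for Cxcl12, -0.948 for Cxcl13, -0.235 for Cxcl14 and 0.109 for Ccl25. With array weights it turned to -0.0364 for Ccl3, -0.0273 for Ccl9, -0.0193 for Ccr2, -0.0407 for Cxcl9, -0.263 for Ccl22, -0.00835 for Cxcr3, -0.0833 for Xcl1, -0.0324 for Cxcl13 and -0.151 for Cxcl14. The value of Ccl6, -0.0049 as reported, was 0.0303 with quantile normalization, 0.012 by edgeR and 0.00704 by DESeq2. Apart from the omissions, which use fewer libraries, the cause was not tested.

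Leaving out 1 library at a time gave log2 fold changes of both signs for 12 genes, from -0.122 to 0.0831 for Ccl6, -0.0734 to 0.315 for Ccl9, -0.0358 to 0.175 for Cx3cl1, -0.0581 to 0.533 for Ccr2, -0.194 to 1.44 for Cxcl9, -0.0676 to 0.63 for Cxcl11, -0.0078 to 0.107 for Cxcl16, -0.0864 to 0.639 for Ccl22, -0.162 to 0.56 for Cxcr3, -0.151 to 0.524 for Xcl1, -0.00495 to 0.285 for Cxcl12 and -0.0929 to 0.315 for Cxcl14. For the 4 genes without overlap the sign could not turn. Their log2 fold changes ran from 0.92 to 1.32 for Ccl5, 0.67 to 0.93 for Ccr9, 0.53 to 0.86 for Ccl8 and 1.30 to 2.64 for Cxcl5. The Gsdme difference stayed between -3.71 and -2.88.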
